A study of Homo sapiens with 4 samples.

Results

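Antisense RNAs that carry the name of a protein-coding gene were compared between a glioma line and a temozolomide-resistant line derived from it. The members were all genes whose GENCODE symbol ends in -AS1, -AS2 or -AS3 and whose deposited value, averaged over the 4 libraries, was at least 20. That rule kept 221 of 1207 genes with such names, in a table of 58219 gene IDs. Members were thus selected on their symbol and mean level, not on their change, and levels are given as a description. For 218 members a protein-coding gene bears the name before the hyphen, and this gene is called the partner. RPARP-AS1, ZNF252P-AS1 and TRG-AS1 have none. DLGAP1 and PAXIP1 each have 2 members, which leaves 216 partner genes, and 194 of these were expressed highly enough to be tested, as partners of 195 members. All 221 members passed the filter on low values. The members just above the level limit were EIF1B-AS1 with a mean of 20.1, CEBPB-AS1 with 20.2 and TSPOAP1-AS1 with 20.5, and those just below were PCF11-AS1 with 19.6, STARD4-AS1 with 19.4 and TMEM202-AS1 with 19.1.

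A natural antisense RNA is transcribed from the DNA strand opposite to a coding gene. Some start at the coding gene's own promoter and run away from it (divergent or head-to-head transcription), some cover its exons, and some lie inside an intron. Antisense RNAs are known to act in several ways, for example by helping or hindering transcription at the shared locus, by pairing with the sense RNA, or at a distance as free RNAs, and many have no known role. Their names record position, not function. In gliomas several of them, among them ZEB1-AS1, AGAP2-AS1 and OIP5-AS1, have been studied as markers or regulators.

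The cells were GBM8401, an established human malignant glioma line. The parental group was GBM8401 without temozolomide selection, and the TMZ-resistant group was a GBM8401 line raised in medium with 200 µM temozolomide (TMZ), a DNA-alkylating drug used against glioblastoma, over 140 days. Each group held 2 libraries of total RNA, which the labels call biological replicates. Both resistant libraries came from a single derived line, so the tests measure the spread between these cultures and not between independently selected lines, and in bulk RNA a change in the share of cells that make a transcript and a change in RNA per cell cannot be told apart.

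Deposited totals were 23163310 to 25832511 scaled fragments per library, and over the log2 values of the 16132 genes tested the Pearson r between replicates was 0.989 in the parental group and 0.991 in the resistant one. Of 12 astroglial and glioma markers, GFAP, S100B and AQP4 were under 10 in every library, and SOX2 lay between 2.87 and 10.5. VIM, CD44, EGFR, NES, SLC1A3 and SOX9 were abundant. OLIG2 had 183 to 237 and FABP7 8.60 to 21.2, and neither passed. The summed level of this marker list was 119140 to 126060 in parental and 82046 to 90856 in resistant libraries. Most of that sum was VIM, with means of 77728 and 50947. In the list 1 gene was higher (SLC1A3) and 4 were lower (NES, VIM, SOX9 and CD44). Of the markers of other cell types, 1 of 3 epithelial (KRT8), 1 of 4 hematopoietic (CD68) and 1 of 3 neuronal markers (RBFOX3) were higher in resistant cells. Of 3 endothelial markers 1 (CDH5) was lower. The other markers of these lists (EPCAM, CDH1, PTPRC, CD14, CD3E, SYT1, SNAP25, PECAM1 and VWF) did not pass, some with the opposite sign. The 4 fibroblast markers, summing to 5624 to 7899, did not pass. All 4 were higher in replicate 1 than in replicate 2 of both groups. COL1A1, for example, had 4170 and 3051 in parental and 4109 and 3317 in resistant cells. EPCAM and CDH1 had the same order and KRT8 the reverse. No label ties a replicate number to a shared culture, and the cause was not tested. The part of any change in cell make-up in the results below was not tested.

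Members and partners share DNA in 3 main ways. In 152 members at least 1 exon overlapped an exon of the partner on the other strand. In 33 the gene bodies overlapped but the exons did not, and 30 lay head to head, with starts within 1000 bases and no overlap. The remaining members were 3 on opposite strands further apart and the 3 without a partner. The starts lay within 1000 bases of each other in 86 members of any layout. For 178 members the RefSeq promoter table (GRCh38.p14) held a window of 300 bases, from 250 before to 50 after the start. The median number of CpG dinucleotides in it was 25, against 14 over all 35116 windows.

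The windows of 4 members whose starts lie close to those of their partners show how little DNA separates the 2 directions of transcription. Each is printed on the antisense gene's strand, and capitals run from the partner's RefSeq start base to the antisense start base, both included. Between these 2 bases lie 62 for PRKAR2A-AS1 (chr3:48847687-48847986, plus strand), 180 for SLC2A1-AS1, which RefSeq names SLC2A1-DT (chr1:42958799-42959098, plus strand), 98 for UBAC2-AS1 (chr13:99200706-99201005, minus strand) and 249 for ZNF561-AS1 (chr19:9621232-9621531, plus strand).
PRKAR2A-AS1: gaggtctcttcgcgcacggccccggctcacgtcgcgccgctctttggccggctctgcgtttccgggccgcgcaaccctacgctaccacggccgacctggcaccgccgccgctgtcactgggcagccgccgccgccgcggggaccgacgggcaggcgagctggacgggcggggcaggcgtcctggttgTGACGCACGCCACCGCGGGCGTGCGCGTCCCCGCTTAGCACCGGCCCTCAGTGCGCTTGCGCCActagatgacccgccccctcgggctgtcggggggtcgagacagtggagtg
SLC2A1-AS1: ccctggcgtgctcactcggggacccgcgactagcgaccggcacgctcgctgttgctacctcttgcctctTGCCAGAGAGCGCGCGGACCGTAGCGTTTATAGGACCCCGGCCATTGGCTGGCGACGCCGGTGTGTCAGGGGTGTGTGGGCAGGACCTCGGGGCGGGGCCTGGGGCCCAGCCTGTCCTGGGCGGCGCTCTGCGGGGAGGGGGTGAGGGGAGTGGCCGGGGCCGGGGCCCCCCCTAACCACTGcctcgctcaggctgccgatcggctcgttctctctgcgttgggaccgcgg
UBAC2-AS1: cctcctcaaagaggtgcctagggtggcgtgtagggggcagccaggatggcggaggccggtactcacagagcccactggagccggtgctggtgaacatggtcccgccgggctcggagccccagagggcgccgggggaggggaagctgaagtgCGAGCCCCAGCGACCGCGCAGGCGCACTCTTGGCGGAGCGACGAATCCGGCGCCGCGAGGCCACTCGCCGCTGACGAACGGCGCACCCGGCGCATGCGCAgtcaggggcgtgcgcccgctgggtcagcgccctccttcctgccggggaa
ZNF561-AS1: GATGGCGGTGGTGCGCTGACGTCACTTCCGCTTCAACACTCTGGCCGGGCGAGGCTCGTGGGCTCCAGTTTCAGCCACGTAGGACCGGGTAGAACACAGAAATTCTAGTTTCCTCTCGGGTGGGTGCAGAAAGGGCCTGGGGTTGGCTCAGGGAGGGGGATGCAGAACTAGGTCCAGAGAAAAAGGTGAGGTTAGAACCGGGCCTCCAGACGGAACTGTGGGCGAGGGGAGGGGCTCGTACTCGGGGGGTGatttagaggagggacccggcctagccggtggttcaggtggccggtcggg
Searched on both strands, the SLC2A1-AS1 window held CCAAT, found in 34.6% of all windows, and TATAAA, found in 11.5%. The UBAC2-AS1 window held the palindromic motif of the factor NRF1, present in 1.24% of all windows. The ZNF561-AS1 window held TGACGTCA, the cyclic AMP response element, present in 1.85%. The PRKAR2A-AS1 window held none of the 10 motifs searched. Of the 178 member windows, 32.0% held CCAAT, 6.18% TATAAA, 3.93% the NRF1 motif and 3.37% TGACGTCA. The other motifs were CCGGAAGT (an ETS site, in 5.62% of member and 4.14% of all windows), CACGTG (an E box, 7.87% and 7.26%), TGANTCA (an AP-1 site, 5.06% and 7.71%), TTTCCCGC (1.69% and 1.63%) and TTTGGCGC (0% and 0.652%), both E2F sites, and TGATGNAAT (an ATF4 element, 0% and 0.991%). A match is a description of the letters and not of binding.

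More antisense RNAs were higher than lower in resistant cells. At an adjusted p under 0.05 (limma, over all genes tested), 98 of the 221 members changed, or 44.3%, against 37.1% of all tested genes. Of these 79 were higher, which is 35.7% of members against 16.2% of all genes, and 19 were lower, 8.6% against 20.9%. The median log2 fold change was 0.43 for members and -0.02 for all genes, and 164 members lay above 0 and 57 below. Called changes of at least 2-fold were 44 rises (19.9% of members, 5.39% of all genes) and 9 falls (4.07% and 3.01%), and 4 rises (1.81%, against 0.905%) and 1 fall (0.452%, against 0.515%) reached 4-fold. The 2 parental and 2 resistant values did not overlap in 176 members (79.6%, against 68.6% of all genes). The members summed to 0.174% and 0.178% of all signal in parental and to 0.243% and 0.241% in resistant libraries. Without LRRC75A-AS1 and OIP5-AS1, the 2 most abundant, these shares were 0.128%, 0.132%, 0.175% and 0.172%.

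The excess of rises was present under every scaling tried, but the share of rises among all called genes moved with the scaling too. Of all called genes, 43.7% were higher as deposited, 49.7% under TMM factors, 56.9% by library totals and 57.7% by upper quartile. Members higher and lower numbered 82 and 19 under TMM factors, 88 and 16 when libraries were scaled to their totals, and 90 and 15 under upper-quartile scaling. That last scaling moved the median of all genes by 0.100. The counts rest on both resistant libraries: without resistant replicate 1 the test called 40 members higher and 12 lower, and without resistant replicate 2 40 and 10. The level limit itself admits RNAs through the group in which they are high: 24 members had a parental mean under 20 and 6 a resistant mean under 20. Among the 191 members at 20 or more in both groups, 62 were higher (32.5%) and 15 lower (7.85%), with a median of 0.36.

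**Figure D1:**
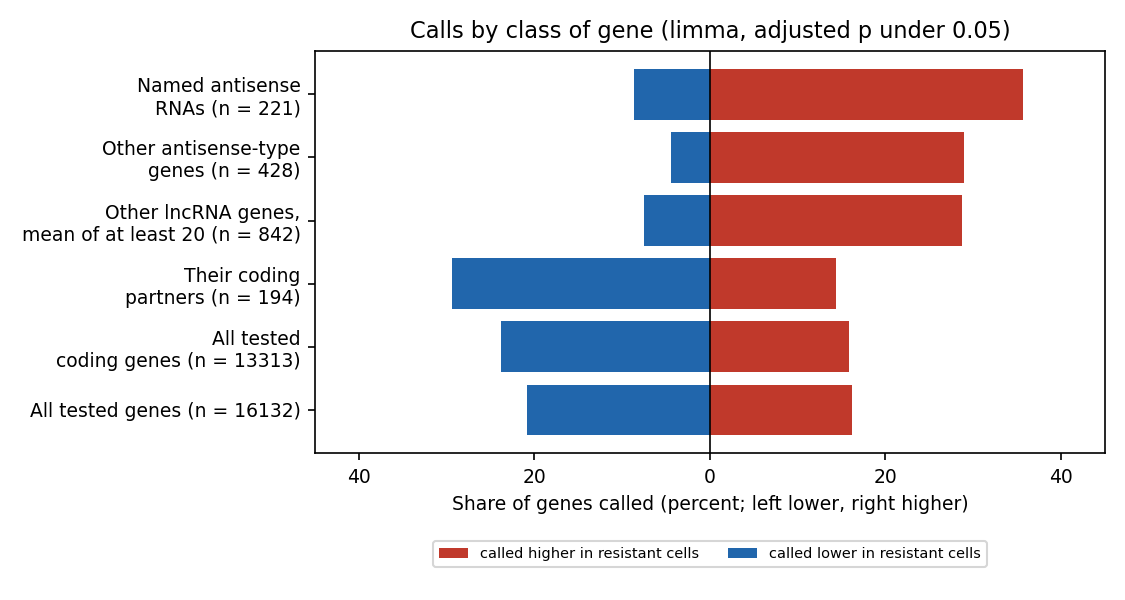
Share of genes called higher (right, red) and lower (left, blue) in resistant cells, in percent of each class, by limma at an adjusted p under 0.05 and the deposited scaling. Named antisense RNAs (35.7% higher, 8.6% lower) and other noncoding classes extend to the right, and the coding partners (14.4% and 29.4%) to the left. The other antisense-type genes were taken without a limit on the mean.

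This lean toward higher levels was shared by other long noncoding RNAs (lncRNAs), and nothing particular to the named set is read from it. Of 842 other lncRNA genes with a mean of at least 20, 28.7% were higher and 7.48% lower, with a median of 0.31. Of 428 other genes annotated as antisense or carrying related names (-AS without a number, -DT, -IT1, -OT1), 29% were higher and 4.44% lower, with a median of 0.46. These 428 were taken without the limit on the mean, so their shares are not at a like level. Under the deposited scaling, tested coding genes ran the other way, with 39.7% called, 15.9% higher and 23.8% lower. Over all tested genes the direction depended on scaling. As deposited, 2621 were higher and 3370 lower, and under TMM factors 3158 and 3190. By library totals the counts were 3667 higher and 2773 lower, and by upper quartile 3741 and 2739. By level, 28.6% of the members with a mean of 20 to 50 were higher, 37.2% at 50 to 100, 46.3% at 100 to 300 and 35% above 300, and the same shares over all tested genes were 14.9%, 18.7%, 21.8% and 16.1%. Members whose start lies within 1000 bases of the partner's had 30 rises (34.9%) and 2 falls (2.33%) among 86. The other 135 had 49 rises (36.3%) and 17 falls (12.6%). The shares were 35.7% and 8.6% of all members and 16.2% and 20.9% of all genes, so the rises were near the member share in both layouts.

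**Figure D2:**
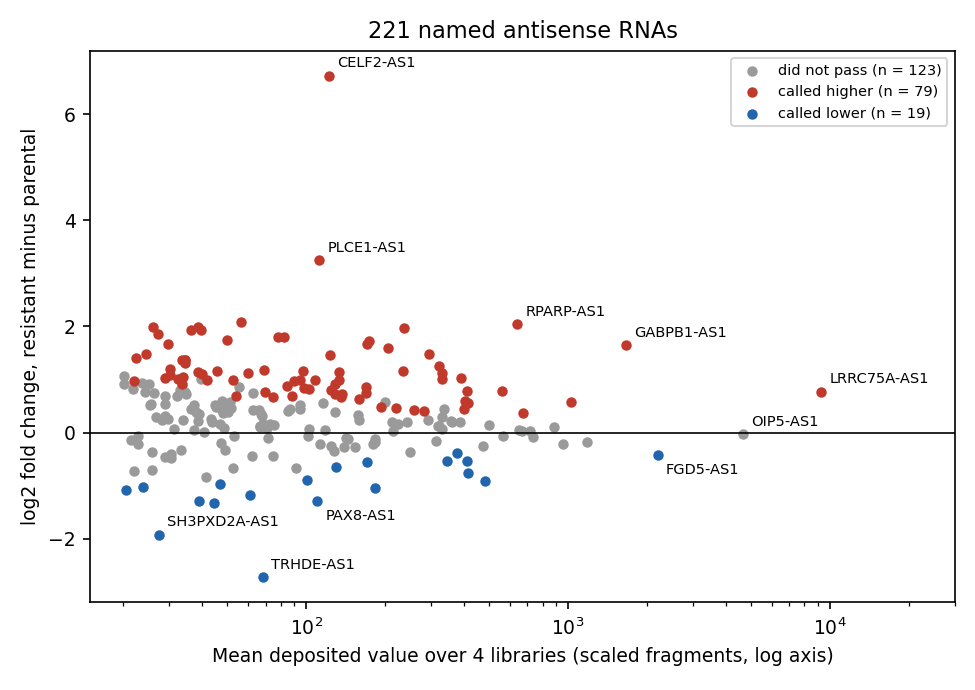
log2 fold change (resistant minus parental) of each of the 221 antisense RNAs against its mean deposited value over the 4 libraries (scaled fragments, log axis), coloured by call. CELF2-AS1 at 6.73 and TRHDE-AS1 at -2.73 mark the extremes, and the most abundant member, LRRC75A-AS1, rose by 0.77.

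The largest change was that of CELF2-AS1, a transcript inside the gene of CELF2, an RNA-binding protein that regulates alternative splicing. Parental libraries had values of 0.814 and 1.91, and resistant libraries 228 and 258. The RNA was close to absent from parental cells and well expressed in both resistant cultures. The parental values correspond to 1 and 2 fragments and the resistant ones to 303 and 304, a ratio of 184 with an exact 95% counting interval of 62.6 to 894, which covers counting error only. In limma the log2 fold change was 6.73 ± 0.36 (SE, adjusted p 3.00e-05). CELF2-AS1 entered the set through its resistant libraries alone, so a difference between groups was implied by the level limit, and SLC2A1-AS1 is the other member with a parental mean under 10. CELF2 itself had 369 and 388 in parental and 120 and 94.3 in resistant cells, a fall by 1.82 ± 0.17 (adjusted p 0.000185). Per 1000 bases of exon, the antisense RNA went from 0.552 against 34.5 for CELF2 to 98.5 against 9.75. Other coding genes within 5 Mb had a median log2 fold change of -0.16.

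The next rise was that of PLCE1-AS1, from 22.0 and 19.1 to 203 and 205, a log2 fold change of 3.25 ± 0.22 (adjusted p 6.42e-05). PLCE1, a phospholipase C that is regulated by Ras proteins, had 1651 and 1884 in parental and 1566 and 1775 in resistant cells, and its groups overlapped. The antisense RNA thus gained about as much in both resistant cultures while the partner's -0.08 ± 0.10 did not pass. The ratio of the pair changed by 3.33 ± 0.25 (log2, adjusted p 6.71e-06). PLCE1-AS1 lies on chromosome 10 at 94279277 to 94287478, where other coding genes within 5 Mb had a median log2 fold change of 0.40.

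The transcripts of these 2 RNAs differ in how they meet the partner, which is why a stretch of each is printed, from the GENCODE 29 transcripts. The PLCE1-AS1 transcript (1683 bases, 3 exons) runs across a whole coding exon of PLCE1, and capitals mark the 130 bases opposite that exon (chr10:94279782-94279911) within bases 1009 to 1218. CELF2-AS1 (2468 bases, 2 exons) lies within an intron of CELF2 and meets none of its exons, and capitals mark its first exon of 91 bases (chr10:11319794-11319884) within bases 1 to 201. Both are on the minus strand.
PLCE1-AS1: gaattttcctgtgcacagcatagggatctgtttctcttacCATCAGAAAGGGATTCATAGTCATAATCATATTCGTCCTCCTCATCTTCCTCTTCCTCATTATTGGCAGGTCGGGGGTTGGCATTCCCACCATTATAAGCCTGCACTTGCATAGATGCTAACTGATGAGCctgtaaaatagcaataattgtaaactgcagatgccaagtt
CELF2-AS1: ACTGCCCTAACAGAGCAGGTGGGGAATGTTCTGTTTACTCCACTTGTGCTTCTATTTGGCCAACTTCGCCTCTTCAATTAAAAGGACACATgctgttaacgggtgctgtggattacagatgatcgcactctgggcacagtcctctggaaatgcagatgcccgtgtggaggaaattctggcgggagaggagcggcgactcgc

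The other 6 of the 8 largest rises were between 3.84-fold and 4.22-fold on the log2(value + 1) scale. ARRDC3-AS1, next to the gene of an arrestin-related adaptor, went from 15.5 and 27.7 to 86.6 and 95.1 (log2 fold change 2.08 ± 0.32, adjusted p 0.00170), with ARRDC3 at -0.08 ± 0.08. RPARP-AS1 went from 272 and 226 to 1055 and 998 (2.05 ± 0.12, adjusted p 4.09e-05). It was the most abundant of these 8 RNAs, and 17.1% of its exon bases lie opposite C10orf95. DLGAP1-AS2 went from 96.8 and 93.7 to 420 and 339 (1.98 ± 0.16, adjusted p 0.000132), while DLGAP1, a scaffold protein of synapses, was at 6.51 to 9.78 in every library and was not tested. DLGAP1-AS1 at the same locus also rose, from 56.1 and 74.6 to 182 and 178 (1.46 ± 0.21). It is named here after its values were seen, because it shares the locus.

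SLC2A1-AS1 starts beside the gene of the glucose transporter GLUT1, as printed above. It went from 11.4 and 8.52 to 38.4 and 45.9 (1.98 ± 0.34, adjusted p 0.00283). The change of SLC2A1 was -0.31 ± 0.13 (adjusted p 0.108), and without parental replicate 1 it was -0.50 and passed, at an adjusted p of 0.00823. PDCD4-AS1 went from 15.5 and 14.3 to 58.0 and 66.2 (1.99 ± 0.29), and PDCD4, which restrains translation by binding the helicase eIF4A, rose with it from 1734 and 1922 to 4194 and 3729 (1.11 ± 0.09). UBAC2-AS1, divergent from a gene of an endoplasmic reticulum protein, went from 16.3 and 12.4 to 47.4 and 69.6 (1.94 ± 0.33), and UBAC2 rose from 1315 and 1208 to 2319 and 2164 (0.83 ± 0.09). Like SLC2A1-AS1, PDCD4-AS1 and UBAC2-AS1 had a parental mean under 20 and met the level limit through their resistant libraries. A gain over the partner was thus favoured by the selection, and its test is no separate support. The antisense RNA gained more than the partner in both pairs, by 0.87 ± 0.32 (adjusted p 0.0463) at PDCD4 and by 1.11 ± 0.34 (adjusted p 0.0232) at UBAC2. The first difference did not pass when any 1 of the 4 libraries was left out, and the second did not pass without resistant replicate 2 (0.79, adjusted p 0.237) or parental replicate 2 (0.99, adjusted p 0.0726).

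**Figure D3:**
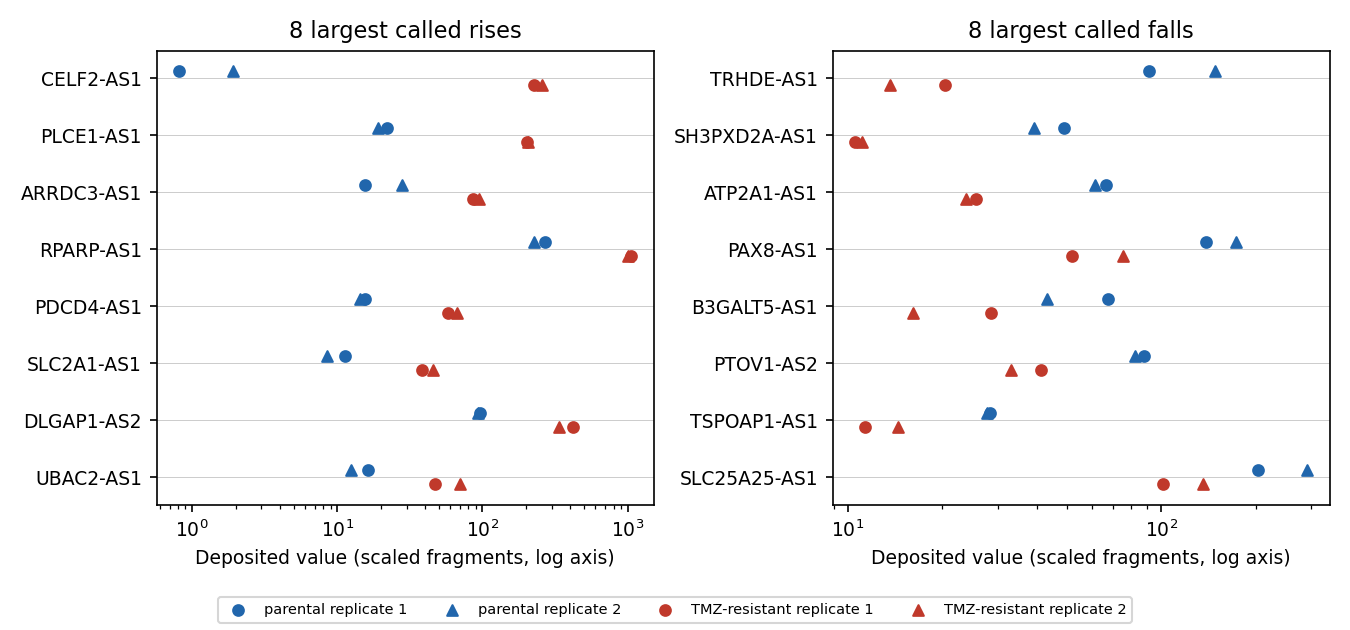
Deposited value (scaled fragments, log axis) in each of the 4 libraries, for the members with the 8 largest called rises and the 8 largest called falls (blue parental, red TMZ-resistant, circles replicate 1, triangles replicate 2). In every row the blue and red points do not overlap, and CELF2-AS1 spans from 0.814 to 258.

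Among the falls, TRHDE-AS1 changed most, from 91.1 and 148 to 20.3 and 13.6 (log2 fold change -2.73 ± 0.33, adjusted p 0.000586). Its partner TRHDE, a membrane peptidase that inactivates thyrotropin-releasing hormone, fell alongside from 150 and 208 to 17.3 and 26.3 (-2.99 ± 0.29). Both RNAs were several-fold lower in each resistant library. The 2 changes differed by 0.26 ± 0.36, which did not pass, and without resistant replicate 1 the sign of that difference turned (-0.31). The 2 genes overlap over 793 exon bases.

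Falls with a falling partner were also seen at PAX8, B3GALT5 and TSPOAP1. PAX8-AS1 went from 139 and 173 to 52.0 and 75.6 (-1.29 ± 0.24, adjusted p 0.00395), and PAX8, a developmental transcription factor of thyroid and kidney, from 330 and 266 to 74.6 and 76.4 (-1.96 ± 0.18). B3GALT5-AS1 changed by -1.29 ± 0.37 (adjusted p 0.0261) and B3GALT5, a galactosyltransferase, by -1.70 ± 0.15. TSPOAP1-AS1 changed by -1.08 ± 0.34 (adjusted p 0.0381) and TSPOAP1 by -1.26 ± 0.20. The call for B3GALT5-AS1 was lost without resistant replicate 2 (adjusted p 0.150) or parental replicate 1 (adjusted p 0.116), and the call for TSPOAP1-AS1, which went from 28.5 and 27.7 to 11.3 and 14.4, whichever library was left out and when libraries were scaled to totals (adjusted p 0.0522) or by upper quartile (adjusted p 0.0533).

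Other falls had a partner that rose or whose change did not pass. SH3PXD2A-AS1 went from 48.8 and 39.2 to 10.5 and 11 (-1.92 ± 0.33, adjusted p 0.00259). Like TRHDE-AS1 and TSPOAP1-AS1, it had a resistant mean under 20 and met the level limit through its parental libraries, which favours a fall. SH3PXD2A, the scaffold TKS5 of invadopodia, rose from 2942 and 3231 to 5034 and 5581 (0.78 ± 0.09), and the ratio of the pair changed by -2.71 ± 0.35 (adjusted p 0.000149). SLC25A25-AS1 went from 203 and 292 to 101 and 136 (-1.05 ± 0.23, adjusted p 0.00829), against 0.31 ± 0.10 for SLC25A25, a mitochondrial carrier of ATP and phosphate. That partner's call, at an adjusted p of 0.0326, was lost without either resistant library or parental replicate 1, at 0.0832 to 0.205, while the ratio (-1.36 ± 0.19) passed in each case. ATP2A1-AS1 changed by -1.34 ± 0.26 and PTOV1-AS2 by -1.18 ± 0.24, with ATP2A1, a calcium pump of muscle, at -0.02 ± 0.27 and PTOV1 at 0.06 ± 0.11. In these last 2 RNAs 42.2% of the exon bases lie opposite exons of the partner.

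Across pairs, and as deposited, antisense RNA and partner moved in the same direction about as often as in opposite ones. The signs of the 2 changes were the same in 96 of 195 pairs (49.2%), and Pearson's r over the pairs was 0.09 and Spearman's rho 0.08, as a description of 195 pairs measured in the same 4 libraries. The corresponding values were 46.5% and 0.07 in 623 other pairs of a noncoding and a coding gene with a noncoding mean of at least 20. In 2223 pairs of coding genes on opposite strands they were 53.5% and 0.14. The 623 pairs can join a member to a coding gene other than its partner. Both genes changed in 38 member pairs (19.5%, against 16.4% of the other noncoding pairs and 17.8% of the coding pairs), 18 in the same direction (9.23%, against 7.87% and 10.5%) and 20 in opposite directions (10.3%, against 8.51% and 7.24%). In 50 pairs (25.6%, against 16.9% of the other noncoding pairs) the antisense RNA passed and the partner did not, with 42 higher (21.5%, against 14.6%) and 8 lower (4.1%, against 2.25%). In 48 (24.6%, against 25.8%) the partner alone passed, and in 59 (30.3%, against 40.9%) neither did. The partner genes had 85 calls among 194 (43.8%), 28 higher (14.4%) and 57 lower (29.4%), with a median of -0.05. That lean depended on scaling, with 36 higher and 52 lower under TMM factors, 44 and 47 by library totals and 47 and 47 by upper quartile. The pairs called in the same and in opposite directions moved with scaling too. They numbered 24 and 19 under TMM factors, and 28 and 18 both by library totals and by upper quartile.

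**Figure D4:**
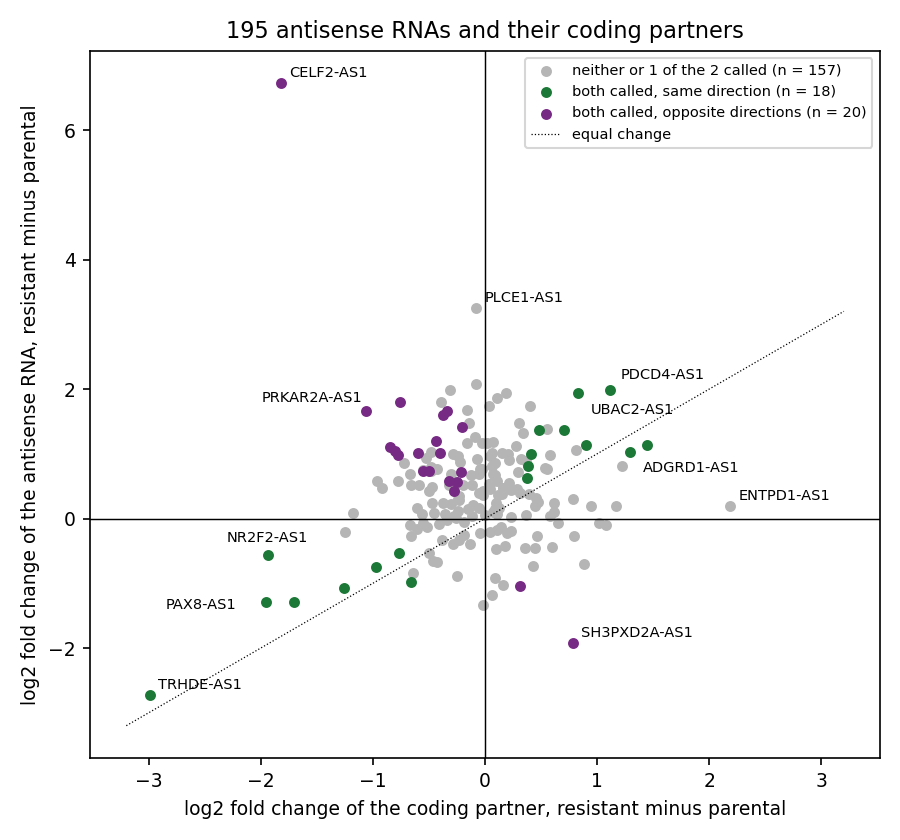
log2 fold change (resistant minus parental) of the antisense RNA (vertical axis) against that of its coding partner (horizontal axis) in 195 pairs, coloured by whether both were called and in which direction; the dotted line marks equal change. The points form a cloud that extends upward more than sideways, with CELF2-AS1 alone at the top left and TRHDE-AS1 near the line at the bottom left.

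The ratio of antisense RNA to partner was tested within each library, which cancels library scaling. It changed in 97 of 195 pairs (49.7%), against 41.4% of all 3407 opposite-strand pairs tested. The antisense RNA gained on its partner in 77 pairs (39.5%) and lost in 20 (10.3%). Over all pairs the ratio rose in 24.1% and fell in 17.3%. However, 2223 of those pairs consist of coding genes only and have no antisense side. A rise or fall there is not a gain or loss of an antisense RNA, so these shares give no background for the direction. In the 930 noncoding and coding pairs that do not share a name, the noncoding RNA gained in 29.2% and lost in 6.45%. These were taken without the limit on the mean, and can join a member to a coding gene other than its partner. With 1 library left out, between 59 and 67 gains and between 11 and 17 losses passed, the lowest number of losses being that without parental replicate 1. Per 1000 bases of exon, the median level of an antisense RNA was 0.147 of its partner's in parental and 0.219 in resistant cells, and it exceeded the partner's in 30 and 36 of the 195 pairs.

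Of the 20 pairs called in opposite directions, 18 (9.23% of the 195 pairs) had a higher antisense RNA and a lower partner. The other 2, SH3PXD2A and SLC25A25, were the reverse. Among the 623 other noncoding pairs, 45 (7.22%) had a higher noncoding RNA and a lower coding gene, and 8 the reverse. Nothing particular to the named pairs is read from the split. The count of 20 is sensitive to single libraries, and it fell when either resistant library or parental replicate 2 was left out. In all 20 the test of the ratio itself passed. That is close to implied by the choice of pairs, because the ratio joins 2 changes already called in opposite directions in the same libraries. It is no separate support.

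PRKAR2A-AS1, whose promoter window is printed above, went from 33.4 and 39.2 to 121 and 136 (1.80 ± 0.22, adjusted p 0.000636). PRKAR2A, a regulatory subunit of protein kinase A, fell from 5509 and 4776 to 2971 and 3076 (-0.76 ± 0.09), and remained the more abundant RNA of the pair. PAXIP1-AS2 went from 74.8 and 105 to 189 and 165 (0.98 ± 0.21, adjusted p 0.00797), and PAXIP1, a BRCT-domain protein of the DNA damage response, from 1834 and 1691 to 986 and 1067 (-0.78 ± 0.09). The second RNA of this gene, PAXIP1-AS1, named here because it shares the partner, had 123 and 204 in parental and 245 and 228 in resistant cells and did not pass (0.57 ± 0.23, adjusted p 0.0923). NIFK-AS1 went from 101 and 104 to 174 and 168 (0.73 ± 0.17, adjusted p 0.0100), and NIFK, a nucleolar protein that binds Ki-67, from 1243 and 1137 to 855 and 831 (-0.50 ± 0.09). PAXIP1-AS2 lost its call without resistant replicate 1 (adjusted p 0.0608), and NIFK-AS1 without either resistant library (adjusted p 0.0808 and 0.0621), whereas the ratios of both pairs, 1.76 ± 0.23 and 1.23 ± 0.18, passed in each case.

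**Figure D5:**
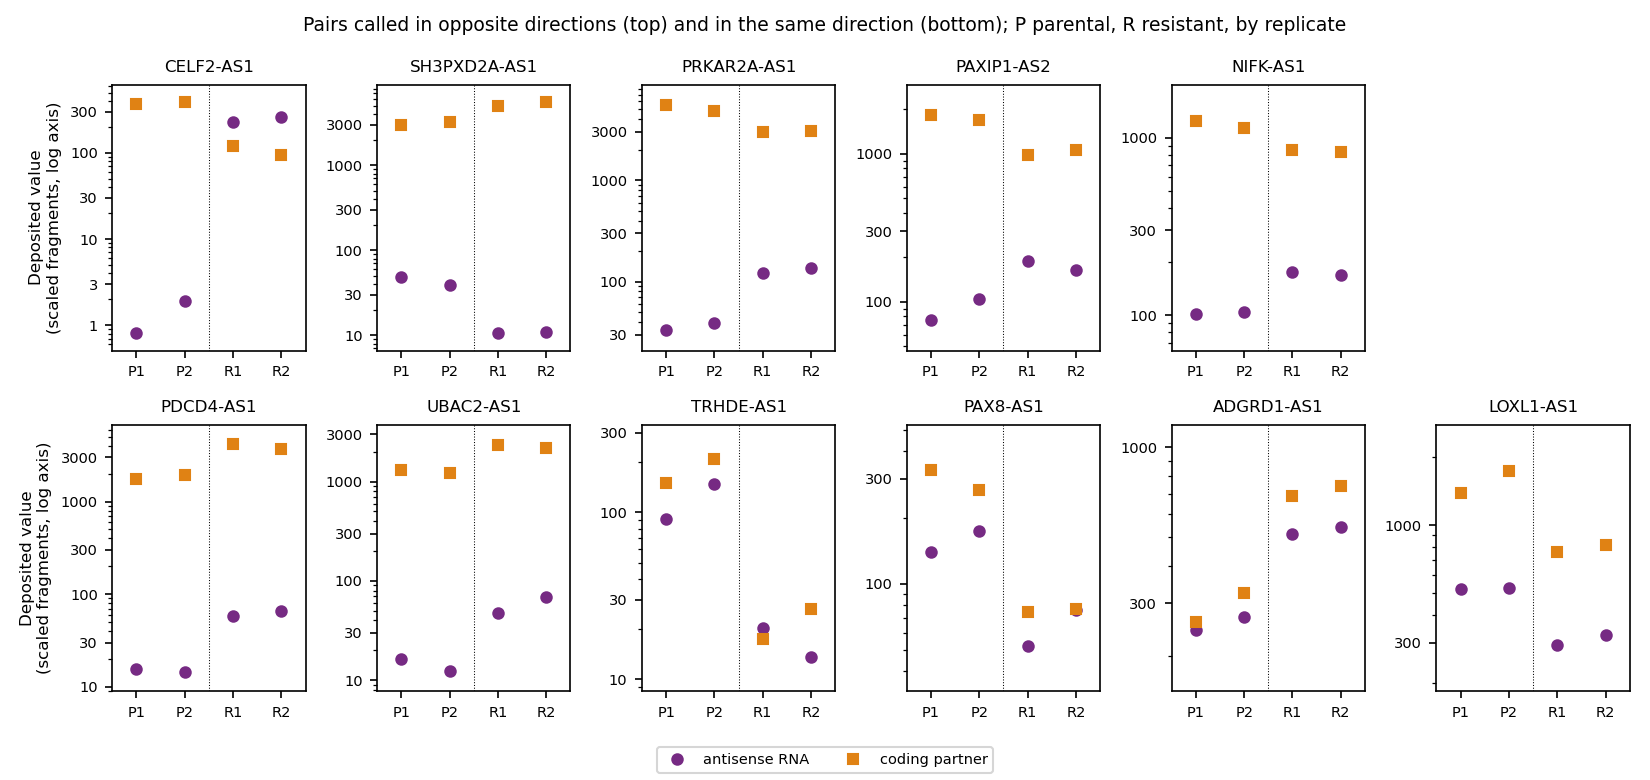
Deposited values (scaled fragments, log axes) of antisense RNA (purple circles) and coding partner (orange squares) in each library (P parental, R resistant) for 5 pairs called in opposite directions (top) and 6 called in the same direction (bottom). At CELF2 the 2 symbols change places between parental and resistant libraries, and at TRHDE both drop.

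Further changes of ratio were large where the partner moved little or moved alone. GABPB1-AS1 went from 706 and 904 to 2494 and 2538 (1.65 ± 0.12, adjusted p 9.48e-05), while GABPB1, a subunit of the transcription factor GABP, changed by -0.34 ± 0.09 (adjusted p 0.0176). The ratio changed by 1.99 ± 0.12 (adjusted p 2.71e-06). CCDC18-AS1 went from 83 and 123 to 305 and 310 (1.59 ± 0.20), against -0.37 ± 0.13 for CCDC18, a coiled-coil protein (ratio 1.97 ± 0.17, adjusted p 1.25e-05). Both ratios passed whichever library was left out. The calls for these partners did not hold throughout. GABPB1 lost its call without either resistant library or parental replicate 2 (log2 fold change -0.38 to -0.30). The same call was lost when libraries were scaled to totals (adjusted p 0.0516) or by upper quartile (adjusted p 0.0552). CCDC18 lost its call in 7 of 14 alternatives (log2 fold change -0.39 to -0.23).

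At ENTPD1, the ectonucleotidase CD39, the coding gene moved and the antisense RNA did not pass. ENTPD1 rose from 118 and 92.7 to 459 and 501 (2.19 ± 0.16, adjusted p 9.18e-05), and ENTPD1-AS1 had 363 and 312 in parental and 378 and 389 in resistant cells (0.19 ± 0.13, adjusted p 0.287). The ratio changed by -2.0 ± 0.15 (adjusted p 6.71e-06).

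Of the 18 pairs called in the same direction, 10 were higher and 8 lower in resistant cells, and the ratio changed in only 3 of them. This count was 8 to 22 with 1 library left out and 28 when libraries were scaled to totals. Besides the pairs above, ADGRD1-AS1 went from 244 and 270 to 514 and 539 (1.03 ± 0.12, adjusted p 0.000510), and ADGRD1, an adhesion G protein-coupled receptor, from 260 and 326 to 689 and 742 (1.29 ± 0.14). ADGRD1-AS1 was the more abundant per 1000 bases, at 201 against 19.9 in parental cells. LOXL1-AS1 went from 520 and 523 to 293 and 325 (-0.75 ± 0.12, adjusted p 0.00180), and LOXL1, an enzyme that cross-links elastin, from 1383 and 1738 to 759 and 818 (-0.98 ± 0.12). The third pair with a changed ratio, NR2F2-AS1 and NR2F2, is named after its values were seen: the antisense RNA changed by -0.56 and the transcription factor by -1.93.

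Of the 5 most abundant antisense RNAs, GABPB1-AS1, given above, had the largest change. LRRC75A-AS1, which the newer gene name table lists as SNHG29 and which contains SNORD49A, SNORD49B and SNORD65, went from 6720 and 6936 to 11448 and 11852 (0.77 ± 0.07, adjusted p 0.000167). LRRC75A had 34.4 to 56.1 in all libraries and did not pass (0.55 ± 0.25). OIP5-AS1, an lncRNA known as Cyrano that is noted for its pairing with the microRNA miR-7, had 4591 and 4801 in parental and 4374 and 4848 in resistant cells, with overlapping groups (-0.03 ± 0.08, and above 0 under the 3 other scalings). FGD5-AS1 fell from 2470 and 2574 to 1838 and 1923 (-0.42 ± 0.08, adjusted p 0.00392), while FGD5, an endothelial exchange factor for Cdc42, was at 22.9 to 39.2. CCDC144NL-AS1 had 1238 and 1274 against 1082 and 1138 and did not pass (-0.18 ± 0.09). A small RNA gene lies within 8 members on the same strand, and of these 5 rose (62.5%, against 35.7% of all members and 16.2% of all genes) and none fell (against 8.6% and 20.9%). The 2 that contain snoRNA genes, LRRC75A-AS1 and EPB41L4A-AS1 (SNORA13), both rose, by 0.77 and 0.79.

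Of 20 antisense RNAs looked up by name, most for their place in glioma or cancer studies, 10 met the level limit. GABPB1-AS1, ZEB1-AS1 and ZNF561-AS1 were higher, AGAP2-AS1 and FGD5-AS1 were lower, and OIP5-AS1, TMPO-AS1, MCM3AP-AS1, PSMA3-AS1 and THAP9-AS1 did not pass. ZEB1-AS1 went from 131 and 159 to 337 and 312 (1.17 ± 0.16, adjusted p 0.000893), with ZEB1, a transcription factor of mesenchymal transition, at 2205 to 2317 in all libraries (-0.02 ± 0.08, and above 0 under the 3 other scalings). The ratio changed by 1.19 ± 0.16 (adjusted p 0.000151). AGAP2-AS1 went from 368 and 448 to 276 and 282 (-0.54 ± 0.14, adjusted p 0.0164), a call lost without either resistant library or parental replicate 2 (adjusted p 0.0684 to 0.0836). AGAP2, a GTPase-activating protein, did not pass (-0.50 ± 0.27). ZNF561-AS1 went from 26 and 28.7 to 47.4 and 64.5 (0.99 ± 0.28, adjusted p 0.0250) and ZNF561, a zinc finger gene, from 535 and 491 to 674 and 688 (0.41 ± 0.10). Both calls were lost without either resistant library. The call for ZNF561-AS1 was also lost without parental replicate 1 (0.92), and that for ZNF561 without parental replicate 2 (0.35).

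In 2 of these pairs the partner moved and the antisense RNA did not pass. TMPO-AS1 had 283 and 367 against 318 and 357 (0.06 ± 0.16), while TMPO, which encodes lamina-associated polypeptides, fell from 9962 and 10788 to 6774 and 7313 (-0.56 ± 0.08, adjusted p 0.000998). THAP9-AS1 had 807 and 904 against 933 and 907 (0.11 ± 0.10), and THAP9, a gene derived from a DNA transposon, changed by 0.61 ± 0.17 (adjusted p 0.0229), lost without either resistant library or parental replicate 1. MCM3AP-AS1 (0.15 ± 0.11) and PSMA3-AS1 (0.04 ± 0.12) and their partners did not pass. The other 10 names were under the limit: TTN-AS1 had a mean of 5.32, CDKN2B-AS1 1.88, HOXA-AS2 1.64, HIF1A-AS1 1.26, FOXD3-AS1 0.852, HOXB-AS1 0.792, IDH1-AS1 0.655 and HOXA-AS3 0.589, and HIF1A-AS2 and SOX21-AS1 were listed at 0 in all libraries.

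Chromosome 10 held 19 members, of which 10 were higher (52.6%) and 2 lower (10.5%). The shares were 35.7% and 8.6% of all members and 16.2% and 20.9% of all genes. Of the pairs described above, 6 lie on chromosome 10. From 80 Mb to the end of that chromosome 7 members had 4 rises (57.1%), 1 fall (14.3%) and a median of 1.26. The 265 tested coding genes of that stretch also leaned upward, with 138 higher, 13 lower and a median of 0.44. Before 80 Mb, 268 coding genes had 29 rises and 86 falls. The medians of other coding genes within 5 Mb were 0.40 at PLCE1-AS1 and ENTPD1-AS1, 0.50 at PDCD4-AS1, 0.55 at RPARP-AS1 and 0.56 at SH3PXD2A-AS1, the last of which fell. The part of this regional shift in the members' changes was not tested. The 202 members on other chromosomes had 69 rises (34.2%) and 17 falls (8.42%) with a median of 0.42. Over all 221 members, the change of a member and the median change of its neighbourhood had a Pearson r of 0.05.

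The remaining called members, outside those named by rule, were 61 higher ones, with log2 fold changes from 0.36 to 1.94 and a median of 1.0, and 8 lower ones, from -1.03 to -0.39. The 116 remaining members that did not pass lay between -0.83 and 1.06. One of the lower ones, NCBP2-AS2, named here for its class, is annotated as protein-coding despite its name. By annotation class, 53 of the 154 members of the antisense class were higher (34.4%) and 12 lower (7.79%). Of 27 long intergenic RNAs 10 were higher (37.0%) and 1 lower (3.70%). Of 35 processed transcripts 15 were higher (42.9%) and 3 lower (8.57%). The shares over all members were 35.7% and 8.6%, and over all genes 16.2% and 20.9%.

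Whether fragments of the partner could have been counted for the antisense gene depends on the strand setting of the counting, which is not given in the sources used here, although the library kit keeps strand information. Of 149 annotated antisense genes with at least 300 exon bases, of which at least 95% lie opposite the exons of a coding gene with a mean above 1000, 125 (83.9%) had a mean under 1 and 1 reached 10, at 10.4. The part of such counting in the members' values was not tested. Of the members, 52 had no exon base opposite an exon of another gene, with 18 higher (34.6%) and 5 lower (9.62%). Another 47 had at least 25% of their exon bases so placed, with 17 higher (36.2%) and 6 lower (12.8%). The shares over all members were 35.7% and 8.6%, and over all genes 16.2% and 20.9%. In 27 members some exon bases are shared with another gene on the same strand, so that their values are to that extent uncertain. Among those described above the shares of exon bases were 12.7% in PAXIP1-AS2, 11% in THAP9-AS1 (with SEC31A), 5.75% in LRRC75A-AS1 (its snoRNA genes), 5.38% in NR2F2-AS1, 3.58% in CCDC144NL-AS1, 3.41% in PSMA3-AS1, 2.58% in OIP5-AS1 and 0.477% in GABPB1-AS1. The highest share was 78.8%, in ATP6V1B1-AS1, which did not pass.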

How the data were processed

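A single table with 1 column for each of the 4 libraries was deposited by the authors. Per the submitters' processing notes, HISAT2 2.1.0 and Cufflinks 2.2.1 (Cuffdiff) were used on GRCh38.p10, besides bcl2fastq, SAMtools 1.2 and Trimmomatic 0.36. The deposited values are a signal: fragments per gene multiplied by a library factor (0.813, 0.956, 0.753 and 0.849 per fragment), with fractions and no division by length. Which annotation release and strand setting they used is not given in the sources used here. Gene models and symbols came from GENCODE 29, which held 57881 of the 58219 IDs.

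Genes with a value of at least 10 in at least 2 libraries and a sum of at least 15 were tested on log2(value + 1) with limma 3.58.1 (R 4.3.3; trend, robust, two-sided, Benjamini-Hochberg over all 16132 genes), and fold changes on this scale understate low genes. The antisense to partner ratio was tested likewise on the difference of log2 values over 3407 opposite-strand pairs that overlap or start within 1000 bases, or, in 4 pairs further apart, share a name. The fits were tested on simulated data. Fold changes carry standard errors (SE, 2 libraries per group).

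Named by rule were the members with the 8 largest called rises and falls, up to 6 pairs called in opposite directions, in the same direction and by ratio, the 5 highest levels, and 20 set names. One pair that the rule names is not reported here. The members and lists were chosen with earlier results of these data known. Alternatives changed the pseudocount, filter, scaling, moderation, limma voom, replicate block, pair table, level limit and libraries.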

Additional observations from a re-analysis of the deposited data

How the results depend on the processing

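With 2 libraries per group and 1 resistant line, the counts of calls were limited by the number of libraries. Of 104 results on single genes or ratios, 65 kept direction and call under all alternatives tried (14 for genes, 11 for ratios). With 1 library left out, all-gene calls ranged from 3528 to 5435 (1356 to 2733 higher, 2016 to 3137 lower), against 5991. Antisense calls ranged from 50 to 89 (40 to 76 higher, 10 to 16 lower), higher partners from 17 to 34, lower partners from 37 to 58 and losing ratios from 11 to 17. Pairs called in opposite directions ranged from 4 to 19 and those in the same direction from 8 to 22. Each such fit has fewer libraries, and its lone library is assumed to vary like the other group. Leaving out a resistant library gave 50 and 52 antisense calls and leaving out a parental one 79 and 89, and the cause was not tested.

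Scaling to library totals called 44 partners higher and upper-quartile scaling 47, against 28, and each called 28 pairs in the same direction, against 18. Under other scalings the signs of 5 genes that did not pass turned, and the cause was not tested. For ARRDC3 the value was 0.017 by library total and 0.023 by upper quartile, and for PLCE1 0.014 and 0.020. With TMM factors, library total and upper quartile the values were 0.022, 0.074 and 0.079 for ATP2A1, 0.015, 0.067 and 0.073 for OIP5-AS1, and 0.018, 0.071 and 0.076 for ZEB1.

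Leaving out 1 library also turned the sign of log2 values that did not pass. The values ranged from -0.38 to 0.34 for ATP2A1, -0.056 to 0.26 for CCDC144NL, -0.13 to 0.49 for FGD5, -0.10 to 0.046 for OIP5-AS1, -0.18 to 0.014 for PLCE1, -0.10 to 0.18 for PSMA3-AS1, -0.26 to 0.027 for PSMA3, -0.085 to 0.21 for PTOV1, -0.12 to 0.25 for TMPO-AS1 and -0.061 to 0.011 for ZEB1. The ratios ranged from -0.25 to 0.17 at AGAP2, -0.10 to 0.93 at B3GALT5, -0.040 to 0.35 at PSMA3, -0.31 to 0.82 at TRHDE and -0.0015 to 0.36 at TSPOAP1.

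Replicates carry the numbers 1 and 2 in both groups, but no label says that a number marks a shared day or culture. Deviations of same-numbered libraries correlated at 0.27 over genes in 2 pairs. With the replicate number as a block, 8 of the 104 single results gained a call, SLC2A1 (-0.31, adjusted p 5.53e-06) among them, and the other 96 kept direction and call. In that fit 8624 genes passed, 48 partners were higher, and 38 pairs changed in opposite and 37 in the same direction.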
